A study of Mus musculus with 30 samples.

Results

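The 43 genes described here code for proteins of the centriole, of the centrosome that forms around it and of the base of the cilium. They were chosen by symbol, as a list of CEP genes and of named centriole factors, and are 43 of the 55401 genes in each count table. The rule holds no measured value, but earlier results of these data were known when the list was made. The shares of members set against all genes below are therefore descriptive. Nuclear RNA-seq was performed in mouse embryonic stem cells (mESC) in which SRCAP, the ATPase of a complex that places the histone variant H2A.Z in chromatin, can be degraded within hours. There were 30 libraries in 15 conditions with 2 libraries each, which the study's methods describe as biological duplicates, and they were counted in 4 tables. Comparisons were made only inside a table.

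SYAT cells carry SRCAP-YPet-AID on both alleles and the plant F-box protein OsTir1, and are derived from CGR8 mESC. They were kept in auxinole, an inhibitor of OsTir1, as the control, or given the auxin indole-3-acetic acid (IAA, at 500 µM) for 2 h, 4 h, 6 h or 8 h. CGR8 cells, with unmodified SRCAP, were left without IAA or treated with it for 4 h. For the sorted cells, SYAT cells with mCherry-MD, a reporter that stays low from mitosis until mid G1, were stained with Hoechst and sorted into early G1 (EG1) and late G1 (LG1), in control or after 1 h of IAA. The wtSRCAP and cdSRCAP cells are SYAT cells with an added doxycycline-inducible SRCAP-mCherry, wild type or catalytically dead, and each line is 1 clone. They received 1 µg/mL doxycycline for 24 h, with auxinole or with 4 h of IAA, and were sorted for mCherry. IAA removes SRCAP as a protein, so the level of Srcap RNA does not check the depletion.

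A centriole is a short barrel of microtubule triplets. New centrioles start beside the old ones at the G1/S transition, when the kinase Plk4 and its partner Stil recruit Sass6, which builds the cartwheel from which the wall grows. Older centrioles carry distal and subdistal appendages, by which they anchor microtubules and dock at the membrane as the base of a cilium. The pericentriolar material nucleates microtubules, and small granules around it, the centriolar satellites, deliver centrosome proteins. Several of these genes follow the cell cycle, and embryonic stem cells cycle fast with a short G1.

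Exon columns held 17540823 to 22873893 counts per library in the SYAT time course, 45617992 to 60214521 in CGR8, 19740778 to 26672402 in the sorted cells, and 12236493 to 26369773 in wtSRCAP and cdSRCAP cells. All 43 genes passed the filter on low counts in the exon columns of every table, and 39 to 43 did so in the intron columns. Replicate 2 of 6 h in SYAT and replicate 1 of IAA in wtSRCAP stood apart from the other libraries of their tables, with scaling factors of 0.854 and 0.838. All 8 stem cell markers examined were expressed in every table, and of 5 fibroblast markers Postn was at 0 everywhere. The 5 together stood at 21.5 to 26.6 CPM (counts scaled to the library total) in SYAT controls and 22.4 to 38.7 after IAA, with the highest at 6 h. Markers of differentiated derivatives summed to 22.6 to 23.7 CPM in SYAT controls and 33.3 to 38.6 after IAA, and to 27.2 to 31.9 and 38.7 to 39.3 in CGR8. The 7 late cell cycle markers stood at 2531 to 2937 in SYAT controls and 2768 to 3012 after IAA, and the 7 G1/S markers at 1444 to 1586 and 1493 to 1761. The late cell cycle markers stood at 2443 to 2574 in CGR8 controls and 2751 to 2867 after IAA. In cdSRCAP they stood at 2479 to 2950 and 3300 to 3358, and in wtSRCAP at 3177 to 3671 and 3095 to 3856. The G1/S sums of CGR8, cdSRCAP and wtSRCAP overlapped between control and IAA. The part of these in the values below was not tested, and in bulk RNA fewer cells of a type and less RNA per cell cannot be told apart.

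The promoters of 8 members with the clearest values are shown, since these genes were low after IAA or rose from EG1 to LG1 in the comparisons that follow. Each is the 250 bases before the RefSeq start site (build GRCm38.p6), with capitals for the motifs searched on both strands. These were TTTGAA (the cell cycle homology region, CHR), TTCCCGC (E2F), CCAAT (NF-Y), GTTGCC (part of the RFX box), CCGGAAG (ETS) and GCGCATGC (the core of the NRF1 site), and in the sequences shown the matches do not overlap, apart from the NF-Y letters of Cep97, which are read on both strands. The first 5 genes had low exon counts after IAA in SYAT, wtSRCAP or cdSRCAP cells, at chr9:87255533-87255782 on the minus strand (Cep162), chr12:91384410-91384659 minus (Cep128), chr5:76588449-76588698 plus (Cep135), chr8:56550567-56550816 minus (Cep44) and chr16:55934849-55935098 minus (Cep97).
Cep162: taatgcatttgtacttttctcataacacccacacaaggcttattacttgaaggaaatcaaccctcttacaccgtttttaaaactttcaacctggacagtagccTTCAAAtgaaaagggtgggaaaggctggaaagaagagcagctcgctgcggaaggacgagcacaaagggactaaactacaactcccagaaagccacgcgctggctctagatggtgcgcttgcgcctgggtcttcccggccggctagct
Cep128: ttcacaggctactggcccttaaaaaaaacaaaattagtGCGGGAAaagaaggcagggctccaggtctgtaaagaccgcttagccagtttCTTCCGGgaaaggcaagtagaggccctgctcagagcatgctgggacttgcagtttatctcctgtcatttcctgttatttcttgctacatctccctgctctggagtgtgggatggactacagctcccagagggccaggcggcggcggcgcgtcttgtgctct
Cep135: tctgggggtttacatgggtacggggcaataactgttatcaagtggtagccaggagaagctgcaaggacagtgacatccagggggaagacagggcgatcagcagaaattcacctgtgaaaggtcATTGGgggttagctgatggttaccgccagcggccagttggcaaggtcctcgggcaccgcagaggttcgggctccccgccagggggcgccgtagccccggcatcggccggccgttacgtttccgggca
Cep44: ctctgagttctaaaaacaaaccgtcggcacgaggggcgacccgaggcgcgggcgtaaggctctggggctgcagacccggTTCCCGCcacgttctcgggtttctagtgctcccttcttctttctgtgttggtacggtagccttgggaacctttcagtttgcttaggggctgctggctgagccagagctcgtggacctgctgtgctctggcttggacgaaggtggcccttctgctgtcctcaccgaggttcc
Cep97: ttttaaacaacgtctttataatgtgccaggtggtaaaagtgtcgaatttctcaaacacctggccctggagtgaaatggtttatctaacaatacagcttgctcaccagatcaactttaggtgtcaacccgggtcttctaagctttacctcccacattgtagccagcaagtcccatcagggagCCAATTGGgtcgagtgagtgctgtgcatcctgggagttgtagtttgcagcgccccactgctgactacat

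The promoters of the duplication genes Plk4 (chr3:40799701-40799950, plus), Stil (chr4:114999868-115000117, plus) and Cep152 (chr2:125625114-125625363, minus) are shown because these genes were higher in LG1 than in EG1.
Plk4: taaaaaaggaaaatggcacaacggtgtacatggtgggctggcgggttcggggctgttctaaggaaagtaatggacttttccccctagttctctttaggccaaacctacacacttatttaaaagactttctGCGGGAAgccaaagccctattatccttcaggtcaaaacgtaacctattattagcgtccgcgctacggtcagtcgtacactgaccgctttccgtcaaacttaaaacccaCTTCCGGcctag
Stil: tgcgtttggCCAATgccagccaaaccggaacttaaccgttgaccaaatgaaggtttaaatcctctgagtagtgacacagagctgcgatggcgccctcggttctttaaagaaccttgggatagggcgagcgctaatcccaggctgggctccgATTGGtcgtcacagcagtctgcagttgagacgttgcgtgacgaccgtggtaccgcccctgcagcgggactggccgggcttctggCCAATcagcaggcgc
Cep152: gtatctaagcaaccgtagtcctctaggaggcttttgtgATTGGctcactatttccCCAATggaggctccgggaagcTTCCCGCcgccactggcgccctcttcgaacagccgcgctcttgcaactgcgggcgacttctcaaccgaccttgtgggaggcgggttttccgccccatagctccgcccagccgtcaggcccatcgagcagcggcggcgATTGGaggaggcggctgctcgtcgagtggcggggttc

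Of the 43 genes, 37 were matched to a RefSeq promoter, and Cep350, Cntrob, Cep192, Cep120, Pcm1 and Cep76 were not. Over 300 bases, from 250 before to 50 after the start, the E2F letters stood in 12 of the 37, against 5.29% of 27025 genes with a promoter and 9.58% of the 11945 of these that were tested in the SYAT exon columns. The NF-Y letters stood in 18 of 37 (41.1% and 42.6%), the CHR letters in 10 (20.2% and 14.4%), the RFX letters in 8 (14.1% and 14.9%), the ETS letters in 7 (9.93% and 18.2%) and the NRF1 letters in 5 (3.05% and 5.53%). Of the 5 promoters of genes low after IAA, Cep128 and Cep44 held the E2F letters, Cep135 and Cep97 the NF-Y letters and Cep128 and Cep97 the RFX letters, and no motif stood in all 5. These are matches of letters and show no binding.

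In SYAT controls the members spanned a wide range of levels, given as exon CPM per kilobase of exon. The highest were Pcm1, the scaffold of the satellites, at 31.95 ± 4.34 (SD, n = 2) and Cep170b, a microtubule-binding protein related to the appendage protein Cep170, at 29.3 ± 6.33, which overlapped. The lowest were Cntln, a protein of the linker between centrioles, at 0.124 ± 0.0638, and Cep112 at 0.170 ± 0.0434, which overlapped too. The median member stood at 4.75, against 2.52 for all genes tested, and 30 of 43 were above that value. In CGR8, the sorted cells and the wtSRCAP table, 34, 25 and 30 members were above the median of their table.

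**Figure D1:**
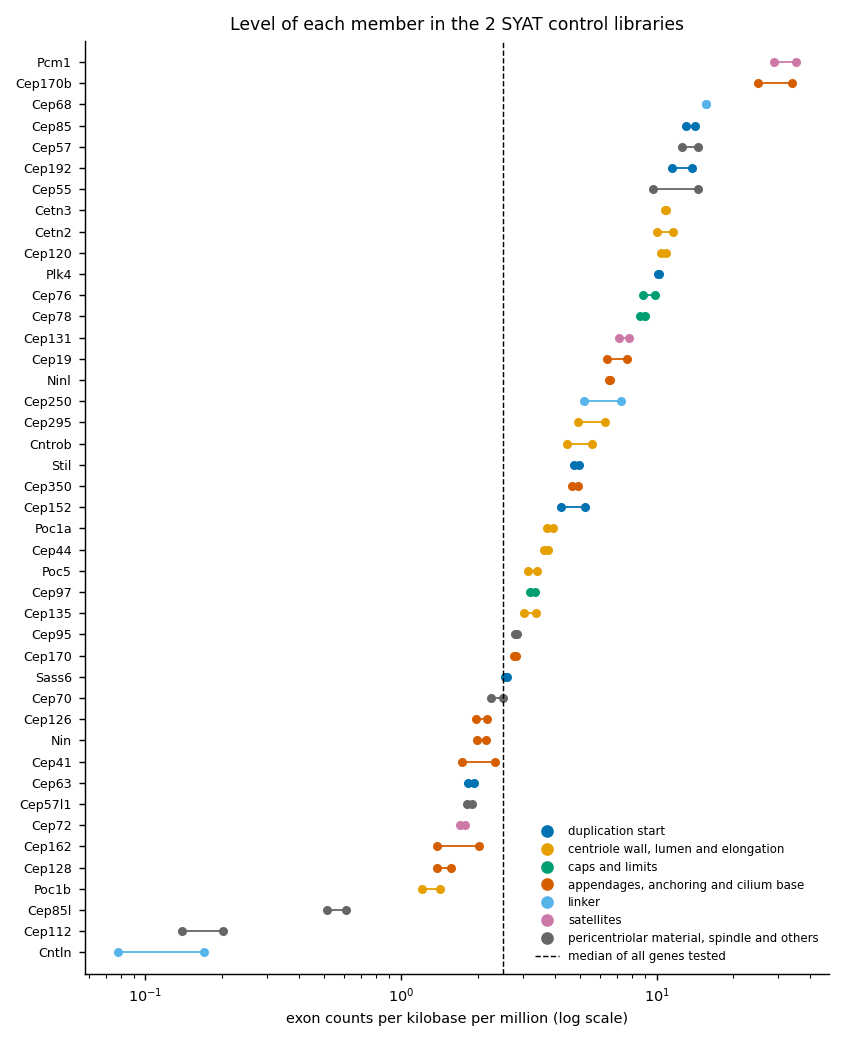
Exon CPM per kilobase of exon (x axis, log scale) of each of the 43 members (y axis) in the 2 SYAT control libraries, with 1 point per library, a line joining them and colours for the role groups. The members run from Cntln at 0.124 to Pcm1 at 31.95 on average, and the dashed line marks the median of all genes tested, 2.52.

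After SRCAP degradation in SYAT cells, a larger share of the members than of all genes was low, and none was high at an unadjusted p under 0.05. The members low at that p were 3 of 43 at 2 h (2.55% of all genes tested), 12 at 4 h (6.00%), 14 at 6 h (8.21%) and 14 at 8 h (8.44%). Cep135, Cep162, Cep19, Cep97, Cep128, Cep131, Cep72, Cep350, Poc1a and Sass6 were among them at 4, 6 and 8 h. The median log2 fold change of the members was -0.12, -0.16, -0.32 and -0.29 at the 4 times, against 0.00, 0.02, 0.01 and 0.03 for all genes tested.

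None of these passed the call, which asks for an absolute log2 fold change over 0.5 and an adjusted p under 0.05 in edgeR's quasi-likelihood test. This call marked 0% of all genes as lower at 2 h and 4 h, 0.0364% at 6 h and 0% at 8 h. DESeq2, the tool of the study, called no member at 2 h and 4 h. At 6 h it called 3 as lower (2.03% of all genes), which were Cep135, Cep162 and Cep19, and at 8 h it called 5 (1.70%), which were Cep128, Cep131, Cep135, Cep19 and Poc1a. With the replicate number entered in the fit as a block, edgeR called 6 as lower at 6 h (2.59% of all genes) and 4 at 8 h (2.395%). Replicate numbers paired these libraries only when 6 h was left out. Without replicate 2 of 6 h, 13 members were low at an unadjusted p under 0.05 at 6 h, against 7.96% of all genes. The 4 h and 6 h counts were lower without either control library, and the 4 h count was lower without replicate 1 of 4 h. The shares of all genes in those fits are not given.

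In 12 of 43 members all 8 IAA libraries lay below both controls, which held for 9.20% of all genes. They were Cep131, Cep135, Cep162, Cep19, Cep350, Cep44, Cep63, Cep72, Cep97, Plk4, Poc1a and Sass6. In no member did all 8 lie above both controls (5.97% of all genes).

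The appendage and cilium base genes held the lowest log2 fold change of the members at 6 h. Cep162 recognises the tips of axonemal microtubules at the base of the cilium. It had 329 and 480.3 normalised exon counts in the controls, 298 and 309.7 at 2 h, 215 and 245 at 4 h, 194 and 137 at 6 h and 165 and 255 at 8 h. Every IAA library was below both controls, and the lowest was replicate 2 of 6 h, which stood apart. Within replicate 1 the lowest was at 8 h. The log2 fold change was -0.82 at 4 h, -1.29 ± 0.278 (SE) at 6 h (edgeR adjusted p = 0.0788) and -0.94 at 8 h.

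Cep19 and Cep350 act together at the mother centriole to bring transport proteins to the forming cilium. Cep19 had 229.6 and 275 counts in the controls, 173 and 184 at 2 h, 149.8 and 124 at 4 h, 124 and 95.4 at 6 h and 156 and 115 at 8 h. Every IAA library was again below both controls, and the log2 fold change at 6 h was -1.20 ± 0.246 (edgeR adjusted p = 0.0724). The lowest value of Cep19 was replicate 2 of 6 h as well. Cep350 went from 1661 and 1573 counts to 1248 and 1150 at 4 h, 1252 and 988 at 6 h and 1186 and 1245 at 8 h. It did not overlap with the controls, and its log2 fold change was -0.53 ± 0.142 at 6 h (edgeR adjusted p = 0.128). Its lowest value was also replicate 2 of 6 h.

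Cep128, a subdistal appendage protein, had 398 and 451 counts in the controls and 400 and 378 at 2 h, where the groups overlapped. It had 253 and 322 at 4 h, 238 and 271 at 6 h and 183 and 273 at 8 h, all below both controls. Its log2 fold change was -0.74 at 6 h and -0.89 ± 0.223 at 8 h (edgeR adjusted p = 0.123). Cep170 was low at 6 h, with 881 and 542 counts against 1019 and 1036, and the lower value was that of the replicate that stood apart. Over the 10 genes of this role, which include Nin, Ninl, Cep41 and Cep126, the median at 6 h was -0.52, with 5 low at an unadjusted p under 0.05, and the values ran from -1.29 to 0.35.

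The 10 genes of the centriole wall, lumen and elongation had a median log2 fold change of -0.35 at 6 h, and 2 were low at an unadjusted p under 0.05. Cep295 had 1950 and 1052 counts at 6 h against 1632 and 2081, and Cetn2 had 369.9 and 228 against 389 and 338.5. Both overlapped with the controls, as did Cntrob, and their lower value was that of the replicate that stood apart in Cep295 and Cetn2. Cep135 joins the cartwheel to the wall. It had 447 and 496 counts in the controls, 409 and 389.9 at 2 h, 314 and 313 at 4 h, 285 and 262 at 6 h and 279 and 298 at 8 h. Replicates were close and no IAA library reached the controls, with log2 fold changes of -0.24, -0.59, -0.79 ± 0.160 (edgeR adjusted p = 0.0717) and -0.71 ± 0.158 (adjusted p = 0.0972).

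Cep44, a protein of the proximal wall, had 449.9 and 467 counts in the controls, 404 and 371 at 2 h, 302 and 310.1 at 4 h, 290.5 and 395 at 6 h and 290.1 and 363 at 8 h. All IAA libraries were lower, and the replicates of 6 h differed most. Poc5, of the inner scaffold of the barrel, was already low at 2 h, with 224 and 258 counts against 400.3 and 435, and had 252 and 229 at 4 h, 231 and 409 at 6 h and 264 and 307 at 8 h. Its exons overlap those of Ankdd1b, so its reads are uncertain. Poc1a and Poc1b are paralogs that stabilise the wall. Poc1a had 269 and 255 counts in the controls, 177 and 178 at 4 h, 126 and 216 at 6 h and 137 and 138 at 8 h, and Poc1b had 122 and 104 in the controls and 68.0 and 55.4 at 8 h. Neither overlapped with the controls then, and the log2 fold changes were -0.93 and -0.87 (edgeR adjusted p = 0.141 and 0.228). The exons of Poc1b overlap those of Galnt4.

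Cep97 forms the cap on the distal end of the centriole together with Ccp110. It had 627 and 597 counts in the controls, 496 and 379.5 at 2 h, 454 and 385 at 4 h, 423 and 351 at 6 h and 409 and 366 at 8 h, with all IAA libraries below both controls. The log2 fold change was -0.66 ± 0.188 at 6 h and -0.66 ± 0.187 at 8 h (edgeR adjusted p = 0.144 and 0.161). Cep76, which limits centriole duplication to a single round, had 765 and 685 counts in the controls, 615 and 632 at 6 h and 575 and 537 at 8 h, and was low at an unadjusted p under 0.05 at 8 h. Cep78 stood at a log2 fold change of -0.07 at 6 h.

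Of the satellites, Cep131 and Cep72 were low and Pcm1 was not. Cep131 had 558 and 614 counts in the controls, 409 and 466 at 2 h, 317 and 319.5 at 4 h, 248 and 478 at 6 h and 277 and 281 at 8 h. All IAA libraries were below both controls, but the replicates of 6 h lay far apart, and the log2 fold change at 8 h was -1.07 ± 0.260 (edgeR adjusted p = 0.117). The exons of Cep131 overlap Gm25948 on the same strand. Cep72, which tethers proteins to satellites, had 286 and 299 counts in controls, against 189 to 231 after IAA, without overlap. Pcm1 had 4401 and 5336 counts in controls, against 3743 to 5607 after IAA, where its lowest value was replicate 2 of 6 h.

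**Figure D2:**
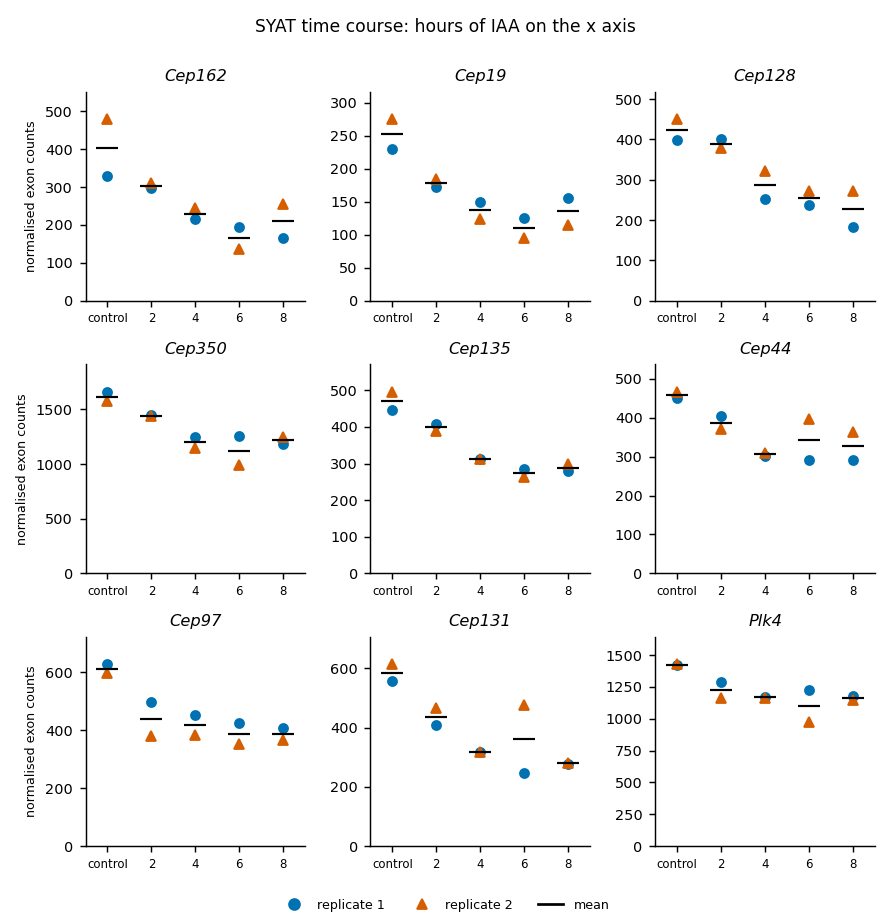
Normalised exon counts (y axis, from 0) of 9 members in SYAT control cells and after 2, 4, 6 and 8 h of IAA (x axis), with circles for replicate 1, triangles for replicate 2 and bars for the mean. In Cep162, Cep19, Cep350, Cep135, Cep44, Cep97, Cep131 and Plk4 all 8 IAA libraries lie below both controls, and in Cep128 those of 4, 6 and 8 h do.

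The genes that start duplication had small differences. Plk4 had 1423 and 1427 counts in the controls, 1289 and 1167 at 2 h, 1174 and 1167 at 4 h, 1226 and 974 at 6 h and 1177 and 1146 at 8 h. All IAA libraries were lower, by a log2 fold change of -0.37 ± 0.141 at 6 h (unadjusted p = 0.0245). The lowest value was replicate 2 of 6 h, which stood apart. Sass6 had 326 and 318 counts in controls, against 192 to 266 after IAA, without overlap, and a log2 fold change of -0.63 at 8 h. Its exons overlap those of Trmt13 and Gm42893, both on the other strand.

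Stil had 563 and 592 counts in the controls, 520.5 and 385 at 6 h and 472 and 517 at 8 h, and its log2 fold change did not go past -0.35. Cep152, which brings Plk4 to the centriole, had 498 and 620.4 counts in the controls and 464 and 859.8 at 8 h, so its replicates lay far apart. Cep192, a scaffold of the pericentriolar material that also recruits Plk4, had 2936 and 3526 counts in the controls, 2785 and 2530 at 6 h and 2795 and 3285 at 8 h. Cep63, the partner of Cep152, had 379.6 and 358 counts in controls, against 245 to 336 after IAA, without overlap, and its exons overlap those of Anapc13. The median of the 7 genes of this role was -0.28 at 6 h, with 2 low at an unadjusted p under 0.05.

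The linker genes Cep250, Cep68 and Cntln had a median of -0.13 at 6 h, and none was low at an unadjusted p under 0.05. The 7 remaining genes, of the pericentriolar material, spindle and abscission, had a median of -0.31 at 6 h, with Cep70 and Cep85l low at an unadjusted p under 0.05. Cep70 had 221 and 246 counts in the controls and 133 and 152 at 6 h, and Cep85l had 99.3 and 83.6 and 61.6 and 45.2. Cep55, an abscission factor, had 573 and 866 counts in controls, against 678 to 1005 after IAA, which overlapped.

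In the intron columns, 40 members were tested, and 3 were low at an unadjusted p under 0.05 at 2 h (3.29% of all genes tested), 9 at 4 h (5.87%), 9 at 6 h (7.98%) and 7 at 8 h (7.85%). Cep135, Cep162, Cep44, Cep72, Cep97 and Cep131 were among them at 4, 6 and 8 h. Cep162 had 532 and 706 intron counts in the controls and 319.6 and 228 at 6 h, and Cep135 had 602 and 652 in the controls and 395 and 339 at 6 h. In 11 of the 40, all 8 IAA libraries lay below both controls (10.6% of all genes). The intron columns of this table are not free of exonic reads, because 51.9% to 52.2% of genes with 1 exon have intron counts there, so they do not stand for unspliced RNA alone. Cep19, Cep57 and Cep63 were at 0 intron counts in all 10 libraries although exon reads were counted in each.

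The 35 other centrosome genes examined include γ-tubulin complex, augmin and distal appendage genes. At an unadjusted p under 0.05, 0, 6, 10 and 6 of them were low at 2, 4, 6 and 8 h. Of all genes tested, 2.55%, 6.00%, 8.21% and 8.44% were low at those times. At 6 h 1 of the 35, Aurka, was high, against 7.93% of all genes. The smallest p at 6 h was that of Ccp110, the partner of Cep97, with a log2 fold change of -0.77 (edgeR adjusted p = 0.0646). Cenpj, which sets centriole length, and Nedd1, which recruits γ-tubulin, stood at -0.77 and -0.66 at that time.

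CGR8 cells, in which IAA has no SRCAP-AID to degrade, serve as the control for IAA itself. The labels list auxinole for the SYAT controls, but not for the SYAT IAA libraries or for CGR8. The absence of auxinole after IAA is therefore not controlled for by CGR8, and its part was not tested. No member was called by edgeR (0.00988% of all genes tested were called lower and 0% higher) or by DESeq2. At an unadjusted p under 0.05, 3 members were low (4.12%), which were Cep131, Cep250 and Cep63, and 6 were high (5.04%), which were Cep295, Cep55, Cep57, Cep68, Cep70 and Pcm1. The median was 0.00, and 21 of 43 were below 0. In 14 members both IAA libraries lay below both controls (20.6% of all genes) and in 10 above (21.6%). Cep131, Cep63, Cep72 and Cep97, low in all IAA libraries of SYAT, were among the 14.

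Cep162 had the lowest log2 fold change in SYAT at 6 h, but at 4 h Cep131 was lower. In CGR8 Cep162 had 633 and 963 counts in controls, against 942 and 749.5 after IAA, which overlapped. Cep19 had 447 and 636 in controls and 635 and 556 after IAA, and Cep135 had 1268 and 1194 in controls and 1173 and 1399 after IAA, which overlapped too. Cep97 had 1488 and 1332 in controls, against 1156 and 1157 after IAA, and Cep131 had 2109 and 1604 in controls and 1414 and 1093 after IAA, so that both were lower without overlap in these cells as well. The log2 fold changes were -0.29 ± 0.155 for Cep97 and -0.57 ± 0.196 for Cep131, beside -0.55 ± 0.187 and -0.88 ± 0.259 at 4 h in SYAT.

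Cep70 had the smallest p in CGR8, with 752 and 801 counts in controls, against 1087 and 1173 after IAA. It was higher in both IAA libraries, with a log2 fold change of 0.54 ± 0.162 (edgeR adjusted p = 0.540). Its exons overlap those of 4930422M22Rik and Gm38327 on the other strand. Cep63 had 1198 and 934 counts in controls, against 781 and 693 after IAA, with a log2 fold change of -0.53 ± 0.187. Cep295, which turns new centrioles into centrosomes, had 2580 and 3830 in controls and 4085 and 5479 counts after IAA, and Pcm1 had 7365 and 9759 in controls and 10779 and 12855 after IAA, again without overlap. The exons of Cep295 overlap those of Taf1d on the other strand. SYAT and CGR8 were fitted separately, and the difference between their responses was not tested.

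The wtSRCAP and cdSRCAP cells address whether an added SRCAP, active or catalytically dead, alters the response to the loss of the degradable one. Cep162, Cep135, Cep44 and Cep350 were low after 4 h of IAA in both lines. At an unadjusted p under 0.05, 7 members were low in wtSRCAP (4.48% of all genes tested) and 9 in cdSRCAP (3.99%), and none was high. With the replicate number as a block, described next, 16 were low in wtSRCAP (8.88%) and 13 in cdSRCAP (7.56%), and Cep68 was high in cdSRCAP (7.16%). The median member stood at -0.39 in wtSRCAP and -0.19 in cdSRCAP, against -0.02 and 0.02 for all genes. None was called by edgeR without a replicate block (0.00523% of all genes were called lower in wtSRCAP and 0% in cdSRCAP) or by DESeq2.

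In this table libraries with the same replicate number deviated together. When the replicate number entered the fit as a block, 6 members were called lower by edgeR in wtSRCAP (1.47% of all genes) and 7 in cdSRCAP (1.28%), and none higher. Cep162, Cep135, Cep44 and Cep350 fell in both lines. Cep97 and Plk4 were called only in wtSRCAP, and Cep128, Cep131 and Cep72 only in cdSRCAP, but the difference between the lines was called for no member, by edgeR with or without the block or by DESeq2. In the exon columns no member had an unadjusted p under 0.05 for that difference without the block, and with it Cetn3 and Pcm1 had, both higher in cdSRCAP than in wtSRCAP (1.72% of all genes). Without replicate 1 of IAA in wtSRCAP, which stood apart, the block called fewer members in that line, and without replicate 2 it called more. In cdSRCAP, leaving out any 1 of the 4 libraries left fewer calls. These fits leave 1 library in a group, and the share of all genes called in them is not given. Their calls are therefore not read as a result about the members.

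Cep162 had 436 and 297 counts in wtSRCAP controls and 142 and 142 after IAA, and 345 and 282 in controls and 155 and 115 after IAA in cdSRCAP. The IAA libraries were below the controls in both lines. The log2 fold change with the block was -1.32 ± 0.232 in wtSRCAP and -1.22 ± 0.230 in cdSRCAP (edgeR adjusted p = 0.00316 and 0.00665, and 0.597 and 0.721 without the block).

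Cep135 had 484 and 443 counts in wtSRCAP controls and 244 and 279 after IAA, and 547 and 448 in controls and 306 and 242 after IAA in cdSRCAP. Cep44 had 661 and 563 in controls and 380.1 and 342 after IAA in wtSRCAP, and 710.1 and 514 in controls and 337 and 345 after IAA in cdSRCAP. Neither gene's groups overlapped in either line. With the block, the log2 fold changes of Cep135 were -0.81 and -0.86 (edgeR adjusted p = 0.0278 and 0.0244) and those of Cep44 -0.75 and -0.82 (edgeR adjusted p = 0.0266 and 0.0205). Cep350 had 2641 and 2173 in controls and 1811 and 1502 after IAA in wtSRCAP, and 2337 and 2099 in controls and 1765 and 1278 after IAA in cdSRCAP, with log2 fold changes of -0.54 and -0.56 (edgeR adjusted p = 0.0375 and 0.0434).

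Of the genes called in wtSRCAP alone, Cep97 had 421 and 571 counts in controls and 195 and 326 after IAA, and 352 and 425 in controls and 223 and 269 after IAA in cdSRCAP. Its IAA libraries were below the controls in both lines, with log2 fold changes of -0.93 and -0.66 with the block (edgeR adjusted p = 0.0122 and 0.0974). Plk4 had 1184 and 1143 in controls and 629 and 884 after IAA in wtSRCAP, and 1095 and 964 in controls and 946 and 868 after IAA in cdSRCAP, so its lowest value was the library that stood apart. Its log2 fold change was -0.61 ± 0.171 in wtSRCAP (edgeR adjusted p = 0.0480), and the response in cdSRCAP minus that in wtSRCAP was 0.43 ± 0.240 (unadjusted p = 0.0850).

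Of those called in cdSRCAP alone, Cep128 had 514 and 461 counts in wtSRCAP controls and 384 and 276 after IAA, and 892 and 544 in controls and 338 and 346 after IAA in cdSRCAP. The cdSRCAP controls were the higher ones, and the log2 fold changes with the block were -0.59 and -1.02 (edgeR adjusted p = 0.108 and 0.00745). Cep131 had 464 and 318 in controls and 337 and 268 after IAA in wtSRCAP, which overlapped, and 505 and 354 in controls and 253 and 209 after IAA in cdSRCAP, which did not. Its log2 fold change in cdSRCAP was -0.88 ± 0.200 with the block (edgeR adjusted p = 0.0219), and that of Cep72 was -0.87 ± 0.224 (edgeR adjusted p = 0.0459). Cep19 was the second lowest member at 6 h in the time course. In wtSRCAP it had 124 and 182 counts in controls and 34.1 and 106 after IAA. In cdSRCAP it had 83.1 and 152 in controls and 52.9 and 56.1 after IAA. The edgeR adjusted p was 0.0596 in wtSRCAP and 0.126 in cdSRCAP with the block.

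**Figure D3:**
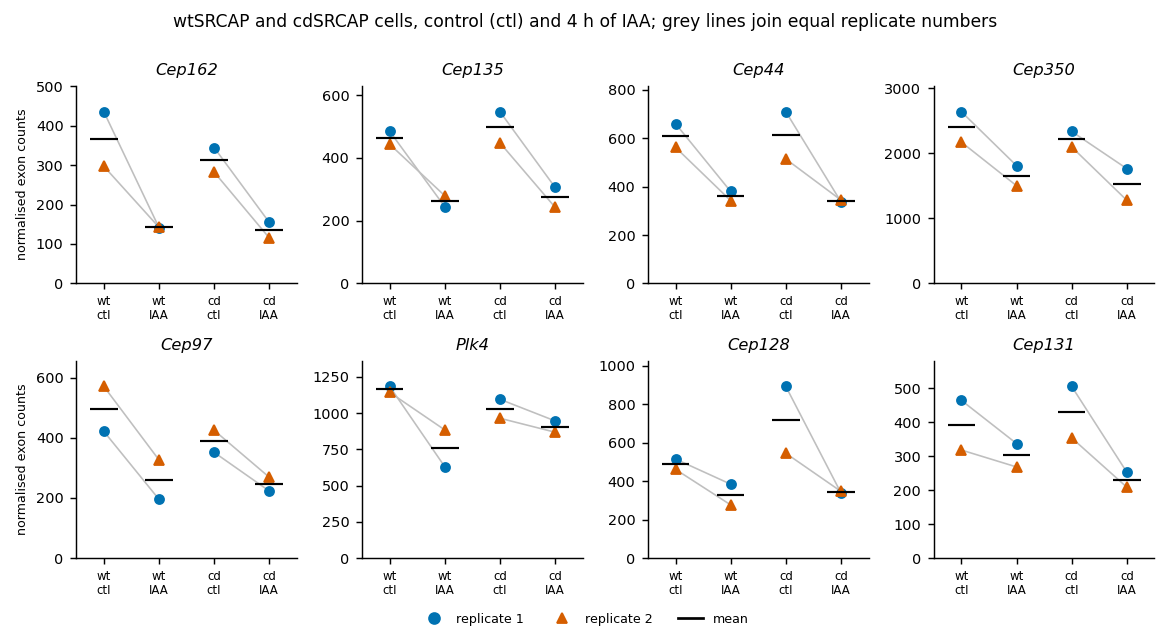
Normalised exon counts (y axis, from 0) of 8 members in wtSRCAP and cdSRCAP cells in control (ctl) and after 4 h of IAA, with circles for replicate 1, triangles for replicate 2, bars for the mean and grey lines between libraries of 1 replicate number. The IAA points of Cep162, Cep135, Cep44, Cep350, Cep97, Plk4 and Cep128 lie below the controls of their own line in both lines, while those of Cep131 overlap in wtSRCAP.

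In the intron columns of this table, where 0.0936% of genes with 1 exon had counts, 1 member was called without the block. Cep128 had 1348 and 1200 intron counts in wtSRCAP controls and 562 and 516 after IAA, and 1505 and 1419 in controls and 587 and 549 after IAA in cdSRCAP. No IAA library came near a control, and replicates were close. Cep128 fell, with a log2 fold change of -1.24 ± 0.143 in wtSRCAP and -1.36 ± 0.142 in cdSRCAP (edgeR adjusted p = 0.0275 and 0.0202), and was 1 called member of 40 tested in each line, against 0.236% and 0.213% of all genes. In wtSRCAP the call was lost in a fit of the compared groups alone and without either control or without replicate 1 of IAA, with edgeR adjusted p from 0.0763 to 0.223. In cdSRCAP it was lost without any 1 of the 4 libraries, with adjusted p from 0.118 to 0.444, and its direction did not change in any of these fits. With the block, 4 members were called in cdSRCAP introns (1.74%), which were Cep128, Cep162, Cep295 and Poc1a. The call of Cep295 rests on 1 control library, with 171 and 0 intron counts in controls and 0 and 0 after IAA. Cep162 had 304 and 222 intron counts in wtSRCAP controls and 144 and 115 after IAA, and 205 and 254 in controls and 72.3 and 88.3 after IAA in cdSRCAP.

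In 13 of 43 members the IAA libraries were below the controls of their own line in both lines (9.20% of all genes), and in none above in both (7.28%). The controls of the lines differed at an unadjusted p under 0.05 in 1 member, Stil, with 576 and 567 counts in wtSRCAP and 367 and 389 in cdSRCAP (1.32% of all genes were lower). With the block these were Stil and Cep170 as lower (4.93%) and Cep128 as higher (5.13%) in cdSRCAP. After IAA they differed in Cep112, with 7.17 and 7.19 counts in wtSRCAP and 37.5 and 14.8 in cdSRCAP (2.84% were higher), which is close to the filter on low counts. The block gave Cep112, Cep295, Cep55 and Pcm1 as higher (7.07%) and Cep170b and Cep250 as lower (7.06%) in cdSRCAP after IAA. Cep112 was also low in wtSRCAP after IAA at an unadjusted p under 0.05, and its controls there were far apart at 65.5 and 20.03 counts. Neither Stil nor Cep112 was called without the block. Cep76 was lower in cdSRCAP than in wtSRCAP in controls and after IAA, with 470.1 and 586 and 506 and 590.4 counts in wtSRCAP and 378 and 444 and 414 and 452 in cdSRCAP, at an unadjusted p of 0.148 and 0.168. Markers of differentiated derivatives summed to 11.9 to 15.7 CPM in wtSRCAP controls and 22.5 to 32.1 after IAA, and to 19.1 and 29.3 to 35.3 in cdSRCAP. The fibroblast markers stood at 5.12 to 5.31 and 12.1 CPM in wtSRCAP, and at 6.48 to 7.36 and 8.39 to 8.68 in cdSRCAP. The 8 stem cell markers were higher after IAA in wtSRCAP too, at 2447 to 2749 CPM in controls and 3076 to 3274 after IAA. In cdSRCAP they overlapped, at 2822 to 3791 in controls and 3474 to 4162 after IAA. The part of these lists in the values was not tested. Of the other centrosome genes, Kif24, a kinesin that works with Ccp110, stood at -0.95 in wtSRCAP and -0.84 in cdSRCAP, and Cenpj at -0.95 and -1.04.

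The 4 h treatments of SYAT, wtSRCAP and cdSRCAP share no library, and 4 of 43 members were low in all 3 at an unadjusted p under 0.05, against 1.36% of the 18104 genes tested in both tables. They were Cep135, Cep162, Cep350 and Cep44. For Cep162 the log2 fold changes were -0.82, -1.36 and -1.21, for Cep135 -0.59, -0.82 and -0.86, for Cep44 -0.58, -0.76 and -0.84, and for Cep350 -0.43, -0.54 and -0.54. The log2 fold change was under 0 in all 3 for 27 of 43 members, against 25.8% of genes.

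The sorted cells address the response as cells leave mitosis. After 1 h of IAA no member was called by edgeR in EG1 (1.03% of all genes were called lower and 0.190% higher) or in LG1 (0.733% and 0.285%), where the call asks for an absolute log2 fold change over 0.25 and an unadjusted p under 0.05. No member had an unadjusted p under 0.05 in either without a replicate block, and DESeq2 called none. The smallest p in LG1 was that of Cep57l1, a relative of the centrosome protein Cep57, with 232 and 246 counts in controls and 192 and 208 after IAA (unadjusted p = 0.156). With the replicate block, LG1 had 2 calls, Cep95 as lower (2.59% of all genes) and Stil as higher (1.61%), with log2 fold changes of -0.28 ± 0.122 and 0.30 ± 0.0934, and leaving out libraries left 0 to 4. The response in LG1 minus that in EG1 was called for no member by any of the fits, where a call asks for an adjusted p under 0.05 and an absolute log2 difference over 0.5. At an unadjusted p under 0.05 it differed for no member without the block and for Poc1b with it, by 0.58 ± 0.210 (2.55% of all genes were higher).

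In the intron columns after 1 h, 2 members were lower in LG1 (2.70% of all genes), Cep72 and Sass6, and none was called in EG1. Cep72 had 465 and 486 intron counts in LG1 controls and 337 and 347 after IAA, and in EG1 417 and 439.8 in controls and 332 and 356 after IAA. Its IAA libraries were below the controls in both phases, with log2 fold changes of -0.47 ± 0.175 in LG1 (unadjusted p = 0.0296) and -0.32 ± 0.172 in EG1 (unadjusted p = 0.106). Sass6 introns had 14.2 and 0 counts in LG1 controls and were at 0 after IAA, so no fold is given. With the block, Cep72 and Cep63 were lower in LG1 (5.06% of all genes) and Cep57l1 and Cep72 in EG1 (3.55%), and Sass6 was not called. The blocked log2 fold change of Cep72 was -0.47 ± 0.125 in LG1 and -0.32 ± 0.121 in EG1 (unadjusted p = 0.00912 and 0.0398). Without the block, the calls of Cep72 and Sass6 were absent without replicate 1 of the LG1 control or replicate 2 of IAA in LG1.

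Members differed between the phases. In control cells 4 members were higher in LG1 than in EG1 (0.709% of all genes), which were Cep55, Cntln, Sass6 and Cep250. After IAA there were 7 (1.42%), which were Cep55, Stil, Cep128, Cep152, Cep162, Plk4 and Cep250. Replicate numbers paired these libraries as well, and with the block 9 members were higher in controls (4.02%) and 10 after IAA (6.08%), with Cep95 lower in both (3.29% and 3.62%). None passed an adjusted p under 0.05 with a log2 fold change over 0.5 without the block. In 10 members both LG1 groups lay above both libraries of EG1 under the same treatment (3.86% of all genes), and in Cep70 below (3.43%). The 7 G1/S markers summed to 832 to 1411 CPM in EG1 and 1137 to 1875 in LG1, and the 7 late cell cycle markers to 905 to 1344 and 927 to 1304.

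Of the duplication genes, Sass6 was called in controls and Plk4, Stil and Cep152 after IAA. Plk4 had 984 and 1296 counts in EG1 controls and 1398 and 1718 in LG1 controls, and 901 and 1265 in EG1 and 1462 and 1631 in LG1 after IAA. Replicate 2 was higher than replicate 1 in every group, and LG1 was above EG1 in both replicates and both treatments. With the block Plk4 rose by a log2 fold change of 0.45 ± 0.0771 in controls and 0.53 ± 0.0784 after IAA (edgeR adjusted p = 0.00224 and 4.74e-04).

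Stil had 315 and 402 counts in EG1 controls and 431 and 524 in LG1 controls, and 306 and 426 in EG1 and 544 and 629.5 in LG1 after IAA, with the same order of replicates. Its log2 fold changes with the block were 0.42 ± 0.0961 and 0.69 ± 0.0959 (edgeR adjusted p = 0.0291 and 2.27e-04). Sass6 had 215 and 209 in EG1 controls and 272 and 323 in LG1 controls, without overlap, and 196 and 269.7 in EG1 and 271 and 238 in LG1 after IAA, which overlapped. Cep152 had 315 and 403 in EG1 and 439.9 and 476 in LG1 in controls, and 289 and 342 in EG1 and 428 and 453 in LG1 after IAA, so LG1 was above EG1 in both.

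Cep55 showed the smallest p without the block, with 345 and 384 counts in EG1 controls and 551 and 508 in LG1 controls, and 316 and 399 in EG1 and 577 and 503 in LG1 after IAA. The groups did not overlap, and the log2 fold changes were 0.54 ± 0.166 and 0.60 ± 0.166 (unadjusted p = 0.0118 and 0.00736). Of the linker, Cep250 had 1273 and 1389 in EG1 and 1640 and 1597 in LG1 in controls, and 1350 and 1297 in EG1 and 1596 and 1616 in LG1 after IAA, and its exons overlap the antisense gene 6430550D23Rik. Cntln, at lower counts, had 59.4 and 58.5 in EG1 and 95.8 and 84.2 in LG1 in controls. Both were higher in LG1.

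Of the appendage genes, Cep128 had 401 and 395 counts in EG1 controls and 536 and 453 in LG1 controls, and 367 and 336 in EG1 and 569 and 437 in LG1 after IAA. Cep162 had 472 and 503 in EG1 and 527 and 597 in LG1 in controls, and 428 and 492 in EG1 and 619 and 558 in LG1 after IAA. LG1 was above EG1 for both genes under both treatments. In EG1 the IAA libraries of Cep128 were below the controls, and in LG1 they overlapped. Leaving out replicate 1 of IAA in EG1 reduced the 7 calls after IAA to 1, Cep128, and leaving out replicate 1 of IAA in LG1 to 2. Intron columns were not compared between the phases, since 46.0% to 46.2% of genes with 1 exon had intron counts in EG1 and at most 0.100% in LG1.

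**Figure D4:**
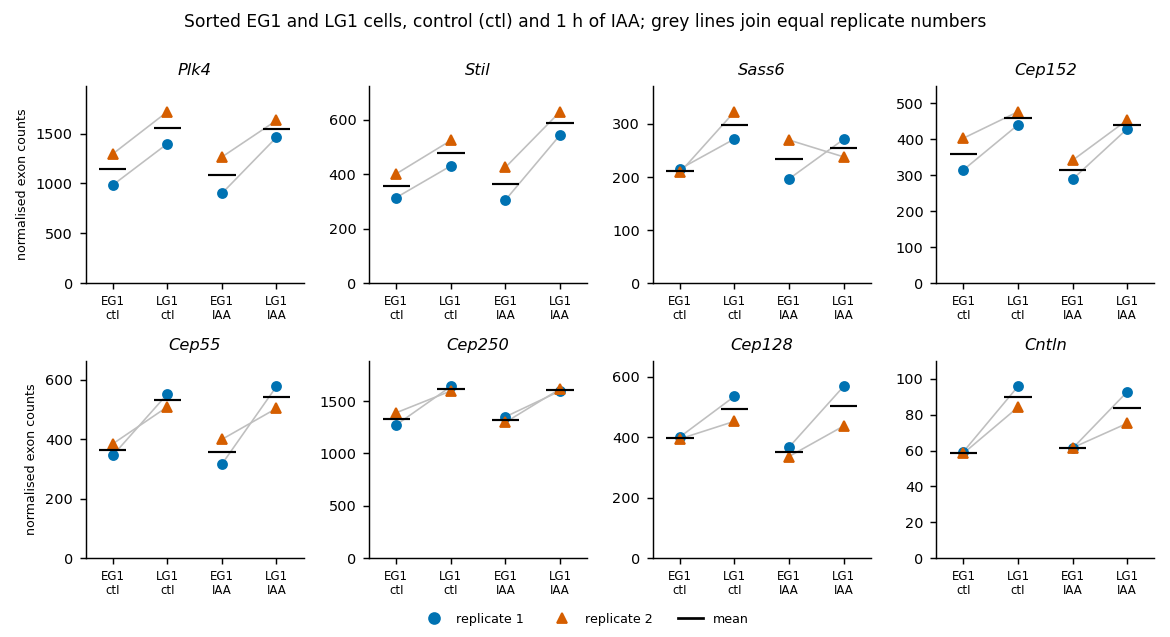
Normalised exon counts (y axis, from 0) of 8 members in sorted EG1 and LG1 cells, in control (ctl) and after 1 h of IAA, with circles for replicate 1, triangles for replicate 2, bars for the mean and grey lines between EG1 and LG1 of 1 replicate number. For Plk4, Stil, Cep152, Cep55, Cep250, Cep128 and Cntln each LG1 point is above the EG1 point of its replicate in both treatments.

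**Figure D5:**
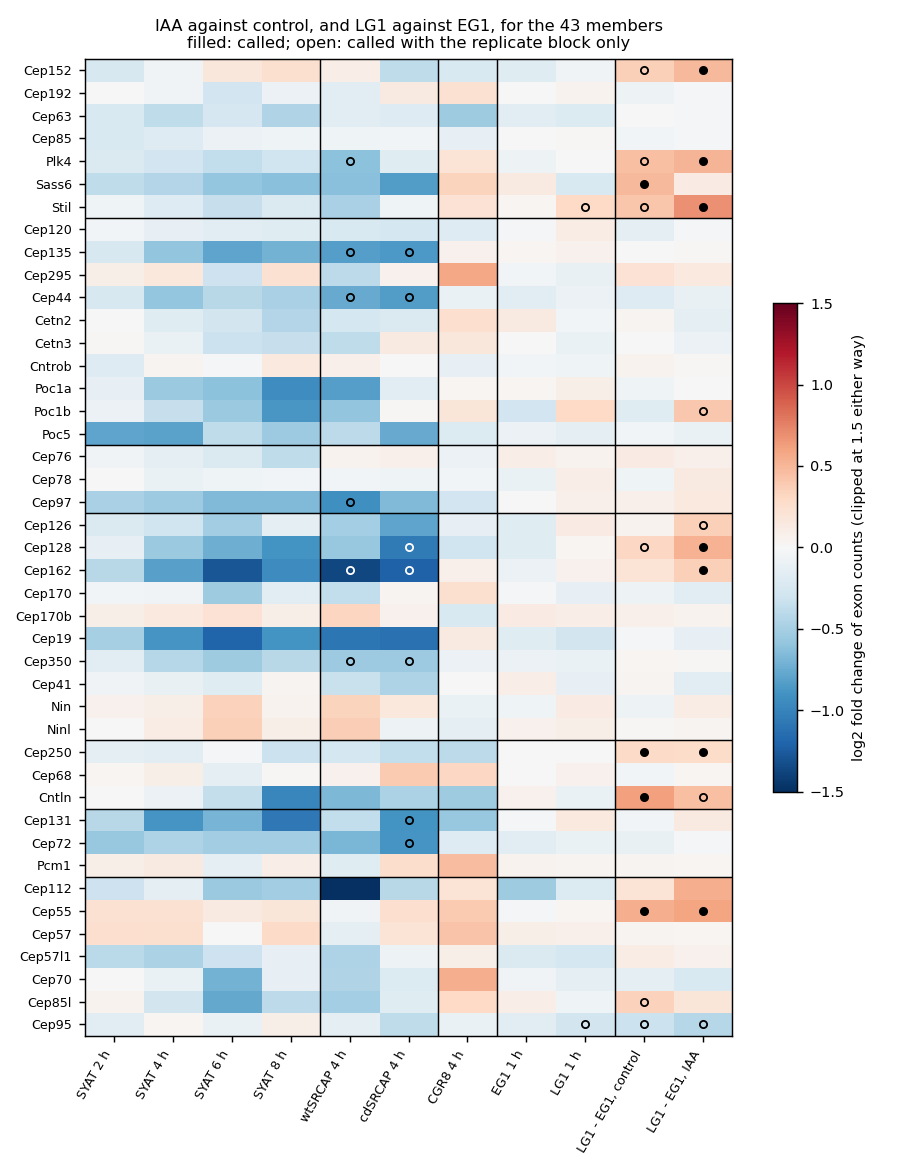
Log2 fold change of exon counts (colour, clipped at 1.5 either way) of the 43 members (rows, by role) for IAA against control in each table and for LG1 against EG1, with filled circles for calls of edgeR without the block and open circles for calls with the block only in the sorted and wtSRCAP and cdSRCAP tables. Cep162 stands at -1.29 at 6 h in SYAT, -1.36 in wtSRCAP, -1.21 in cdSRCAP and 0.08 in CGR8, and the filled circles lie in the LG1 against EG1 columns.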

How the data were processed

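Nuclear RNA was sequenced from 30 mESC libraries, 2 per condition, with paired-end reads from a directional kit. According to the methods, the authors used STAR for alignment (mm10) and featureCounts with GENCODE vM25 for exons and, separately, for introns, taken as what is left of a gene after its exons are removed. SAMtools 1.10 and Picard are named in the submitters' processing notes. The strand setting of the counting is not given in the sources used here, so reads of overlapping antisense genes cannot be told apart. The deposited counts are raw, with exon and intron columns per library. The authors' own DESeq2 results on introns (group means, fold changes, p-values) were also deposited and were not used.

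Each whole table was fitted with edgeR 4.0.16 in R 4.3.3 (quasi-likelihood test, TMM factors, filterByExpr with a minimum count of 10 and a minimum total of 15), with a mean per condition. P-values were adjusted over all genes tested by the Benjamini-Hochberg method, and tests are two-sided. A gene was called at an absolute log2 fold change over 0.5 and an adjusted p under 0.05, and in sorted cells over 0.25 and an unadjusted p under 0.05, which are the thresholds of the study. Normalised counts are counts divided by the library's effective size relative to the geometric mean of its table. Fits were tested on simulated data. DESeq2 1.42.0, other scaling, no filter, the replicate number as a block and leaving out each library were alternatives. P-values measure the spread between duplicates of 1 clone or line.

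The labels give each condition a replicate 1 and 2. Deviations of equally numbered exon libraries correlated at 0.372 to 0.587 in the sorted table and 0.260 to 0.376 in the wtSRCAP and cdSRCAP table, which were therefore read as paired. They correlated at -0.0359 to 0.589 in SYAT (0.267 to 0.589 without 6 h, whose replicate 2 stood apart) and 0.0736 in CGR8, which were not, and at 0.0760 to 0.296 in the introns of wtSRCAP and cdSRCAP.

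The members, lists and tests were chosen with earlier results of these data known. Given with the value in each library are members called in the exon columns, up to 5 with the smallest p in each comparison, the largest fold changes at 6 h that were called with the block in a comparison, and Plk4, Stil, Sass6, Cep152 and Cep192. The rest are described by role. Some members are given only in the comparison where they were among these. Promoters are from RefSeq on GRCm38.p6, and gene overlaps from GENCODE vM21, in which 41 of the 43 members have the same identifier version. Overlaps are not named for every member that has them.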

Additional observations from a re-analysis of the deposited data

Results flagged for a closer look

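After 4 h of IAA, Sass6 and Poc1b moved in opposite directions in SYAT and CGR8 in every library. Sass6 had a log2 fold change of -0.44 in SYAT and 0.34 in CGR8, and Poc1b of -0.34 in SYAT and 0.18 in CGR8. Only the members given with the value in each library were looked at in this way. In CGR8 both IAA libraries lay above both controls in 21.6% of all genes tested and below in 20.6%. The share of all genes that moved in opposite directions in the 2 lines was not counted. The lines were counted and fitted in separate tables and this difference was not tested. The exons of Sass6 overlap those of Trmt13 and those of Poc1b overlap those of Galnt4.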

How the results depend on the processing

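In SYAT exons, where the main count of calls was 0, omitting the filter gave 3 at 6 h and 3 at 8 h, and DESeq2 gave 3 and 5. With the replicate block, edgeR called 6 at 6 h, 4 at 8 h and 2 in CGR8 (Cep131 lower, Cep295 higher). DESeq2 with the block called 1 at 4 h, 7 at 6 h, 7 at 8 h and 1 in CGR8. Equally numbered SYAT libraries deviated together without 6 h, but not in every pair with it, and those of CGR8 hardly did. Omitting the filter gave 1 in CGR8. In the sorted cells the block gave 2 in LG1 after IAA, 10 between the phases in controls and 11 after IAA. Between the phases an adjusted p gave 0 in each treatment, and in controls DESeq2 gave 1 and a fit of the compared groups alone 2. In wtSRCAP and cdSRCAP exons the block gave 6 and 7, and DESeq2 with it 5 and 8.

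In introns, DESeq2 gave 2 at 6 h and 2 at 8 h in SYAT, and 3 and 4 with the block. In EG1 after IAA no filter gave 1, the block 2, DESeq2 with the block 2 and a fit of 2 groups 1. In LG1 after IAA no filter gave 1, DESeq2 with the block 7, an adjusted p 0 and a fit of 2 groups 0. In wtSRCAP, no filter gave 4, DESeq2 with the block 4, a fit of 2 groups 0 and intron minus exon columns 0. In cdSRCAP these were 4, 4, 2 and 0, with DESeq2 alone 3 and the block 4. Between cdSRCAP and wtSRCAP no filter gave 2 in controls and 4 after IAA, where the block gave 1. The median of members in SYAT introns was -0.066, -0.094, -0.30 and -0.13 at the 4 times. The causes were not tested.

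Leaving out each library, calls ranged from 0 to 12 in SYAT at 6 h (12 without replicate 1 of 6 h), 0 to 6 in CGR8 (6 without replicate 2 of the control), 0 to 3 between the phases in controls and 1 to 5 after IAA. With the block they ranged from 0 to 3 in EG1 after IAA, 0 to 4 in LG1 after IAA, 5 to 8 between the phases in controls, 0 to 19 in wtSRCAP, 0 to 3 in cdSRCAP and 0 to 7 between the lines after IAA. In introns they ranged from 0 to 3 in SYAT at 6 h, 0 to 4 in CGR8, 0 to 2 in EG1 and LG1 after IAA, 0 to 1 in wtSRCAP and 0 to 0 in cdSRCAP. Members low at an unadjusted p under 0.05 ranged from 1 to 2, 6 to 10, 7 to 17 and 9 to 12 at the 4 times in SYAT, 3 to 15 in wtSRCAP (3 without replicate 1 of the control, 15 without replicate 2 of IAA) and 3 to 8 in cdSRCAP (3 without replicate 1 of the control, 4 without replicate 2 of IAA). Medians in SYAT ranged from -0.14 to -0.074, -0.25 to -0.16, -0.38 to -0.29 and -0.29 to -0.17. Where a group was left with 1 library, that library was taken to vary like the other groups. Shares of all genes are not given for the counts in this paragraph, so these counts are not read as results about the members.

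The log2 fold change of Cep152 in EG1 after IAA ranged from -0.34 to 0.0067 (the latter without replicate 2 of the control), and the LG1 minus EG1 response of Cep128 from -0.022 (without replicate 1 of IAA in LG1) to 0.40, neither of which was called. Among values of named members, 391 of 466 under other settings and 306 of 356 with a library left out kept their direction and side of the threshold. Members low at an unadjusted p under 0.05 in SYAT at 2 h were 5 with the block. With 2 libraries a group and 12236493 to 60214521 exon counts, members at low counts such as Cep112 and Cntln are limited by depth.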
